A study of Mus musculus with 9 samples.

Results

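The transcripts of 9 chemokine receptors that guide the homing of T cells were followed in murine Tc17 cells, which are CD8+ T cells cultured to make IL-17, after treatment with dimethyl fumarate (DMF) alone or together with reduced glutathione (GSH). The receptors are Ccr6, Cxcr6, Cxcr3, Ccr2, Ccr4, Ccr8, Ccr9, Cxcr4 and Cxcr5, and they were found by gene symbol, as 9 of the 41388 genes in the table of normalized counts. Naive CD62L+CD44- CD8+ T cells were sorted from lymph node and spleen of C57BL/6 mice aged 8 to 12 weeks. All cultures ran for 2 days on plate-bound anti-CD3 (5 µg/ml) with soluble anti-CD28 (0.5 µg/ml), 50 U/ml IL-2, 0.5 ng/ml TGF-β, 30 ng/ml IL-6 and 5 µg/ml anti-IFN-γ, so that the controls carried the polarizing cytokines and the IFN-γ blockade too. Ctrl cells received 0.2% DMSO, the solvent, DMF cells 20 µM DMF, and DMF + GSH cells 20 µM DMF with 50 µM GSH. Each of the 3 groups had 3 RNA-Seq libraries, and replicate 1 of every group came from preparation batch 1 and replicates 2 and 3 from batch 2. The labels do not say whether the replicates came from separate animals, so that p-values measure the spread between these samples, which may be partly technical.

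Chemokine receptors are G protein-coupled receptors with which a T cell reads a gradient of secreted chemokines and moves up it, and the receptors that a cell carries decide which tissues it can enter. CCR6 binds CCL20 and is a receptor of type 17 lymphocytes at epithelial surfaces and at the choroid plexus. CXCR6 binds CXCL16, which is both tethered to membranes and shed, CXCR3 binds the interferon-induced chemokines CXCL9, CXCL10 and CXCL11, and CCR2 binds the monocyte chemoattractant CCL2. CCR4 binds CCL17 and CCL22, CCR8 binds CCL1, and both are known from skin-homing and regulatory T cells, while CCR9 with its ligand CCL25 directs T cells to the small intestine. CXCR4 binds CXCL12, which retains cells in bone marrow and other niches, and CXCR5 binds CXCL13, the chemokine of B cell follicles. DMF is an oral drug for multiple sclerosis that reacts with thiols and depletes GSH. The group with added GSH asks whether an effect of DMF persists when the thiol is supplied. No group received GSH alone, so that an effect of GSH itself cannot be told apart from one on the response to DMF.

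The libraries held 7671772 to 14511926 reads in genes (median 11152111). The label was checked on marker genes. Cd8a was at 10146 ± 587 normalized counts (SD, n = 3) in Ctrl, 12601 ± 1492 with DMF and 10859 ± 1469 with DMF + GSH, whereas Cd4 had means of 1.97, 1.03 and 2.61. All 7 CD8 T cell markers were expressed, and 5 of 6 type 17 markers were measured, with Il17a at 397 ± 119 in Ctrl, 105 ± 63.2 with DMF and 368 ± 80.7 with DMF + GSH. The 10 myeloid markers summed to 377 normalized counts in Ctrl replicate 3, the highest of the 9 libraries, whereas the lowest Ctrl library was at 82.1, the DMF libraries at 61.4 to 82.3 and the DMF + GSH libraries at 97.9 to 99.5. Lyz2 reached 119 there and Csf1r 58.3, against at most 10.6 and 5.83 in the other libraries. The 4 receptors called below as changed by DMF were called as well without this library. The 4 neutrophil markers summed to 7.11 to 10.4 in Ctrl, 0 to 1.71 with DMF and 2.97 to 4.86 with DMF + GSH, mostly from Ly6g, with S100a8 and S100a9 at 0 in all libraries. NK cell markers summed to at most 4.16, and of the 6 B cell markers only Cd79b had a mean of at least 10. Of the 3 markers of plasmacytoid dendritic cells only Ccdc50, which is not restricted to them, was measured.

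Of the 9 receptors, 8 had a mean of at least 10 normalized counts over the 9 libraries and entered the fit (limma on log2(normalized count + 1), all 9 libraries in 1 fit with the batch as a covariate), and Ccr9 did not. A gene passed the threshold with a Benjamini-Hochberg adjusted p (p adj) under 0.01 over the 11599 genes tested and an absolute log2 fold change (log2FC) of at least 0.75. Between DMF and Ctrl, 4 of the 8 receptors tested passed, with Ccr6, Cxcr4 and Cxcr6 lower and Ccr8 higher with DMF, beside 2.89% of all genes tested (1.22% higher and 1.67% lower). At a p adj under 0.1, 7 of the 8 differed, 2 higher and 5 lower, beside 38.2% of all genes (19.9% higher and 18.3% lower). The replicate numbers paired the libraries, and in a paired fit, which had the 3 replicate numbers and not the 2 batches as its covariate (replicate block), 6 of the 8 passed, 2 higher and 4 lower, since Ccr2 and Ccr4 were added, beside 6.8% of all genes (2.53% higher and 4.28% lower). The median log2FC of the 8 was −0.88, against 0.01 for all genes tested. In bulk RNA, fewer cells that carry a transcript and less of it per cell cannot be told apart. Between DMF + GSH and Ctrl, 0 receptors passed, as did 0% of all genes.

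Sequence before the start of the 4 receptor genes past the threshold is shown, since it is where their transcription begins. Promoter windows, the 250 bases before a gene's start in the RefSeq annotation of GRCm38.p6, were found for 8 of the 9 receptors, in 9 windows. Each sequence is given 5′ to 3′ on the strand of its gene, without bases that the annotation places in an exon of it. Capitals mark matches, on either strand, to 5 motifs searched. These were AGGTGTGA (a T-box motif), AGGTCA (a nuclear receptor motif), TGACNNNGC (antioxidant response element), GTAAACA (FOXO site) and TTCNNNGAA (GAS-like site).
Ccr6, chr17:8235793-8236042, forward strand: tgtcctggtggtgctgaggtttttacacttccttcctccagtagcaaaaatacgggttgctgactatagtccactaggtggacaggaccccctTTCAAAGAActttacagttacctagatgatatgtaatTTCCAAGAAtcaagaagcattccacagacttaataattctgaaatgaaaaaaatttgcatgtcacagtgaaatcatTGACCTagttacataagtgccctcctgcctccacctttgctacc
Cxcr4, chr1:128592300-128592549, reverse strand: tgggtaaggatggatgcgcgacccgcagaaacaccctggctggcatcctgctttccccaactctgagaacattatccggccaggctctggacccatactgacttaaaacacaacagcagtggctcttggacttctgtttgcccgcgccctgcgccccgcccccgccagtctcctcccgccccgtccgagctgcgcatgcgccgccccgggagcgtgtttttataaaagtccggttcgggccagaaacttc
Cxcr6, chr9:123806227-123806474, forward strand: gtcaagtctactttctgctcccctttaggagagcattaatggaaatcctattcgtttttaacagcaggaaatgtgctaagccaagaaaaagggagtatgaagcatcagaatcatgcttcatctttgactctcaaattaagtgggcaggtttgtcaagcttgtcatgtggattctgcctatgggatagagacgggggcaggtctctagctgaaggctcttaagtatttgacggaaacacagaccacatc
Ccr8, chr9:120091883-120092113, forward strand: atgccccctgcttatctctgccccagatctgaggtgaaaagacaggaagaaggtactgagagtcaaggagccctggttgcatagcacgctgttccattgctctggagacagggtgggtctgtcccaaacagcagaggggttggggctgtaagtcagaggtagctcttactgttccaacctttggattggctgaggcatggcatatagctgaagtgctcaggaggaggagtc

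The motifs and bases were counted over the whole windows. The Ccr6 window held TTCAAAGAA and TTCCAAGAA, both of the GAS-like form, 157 and 120 bases before the start, and TGACCT, which is AGGTCA on the other strand, 44 bases before it. None of the 5 motifs was found in the second Ccr6 window or in those of Ccr2, Ccr4, Ccr8, Ccr9, Cxcr3, Cxcr4 and Cxcr6, and a missing match says only that these letters are not in these windows. Among 32851 promoter windows of the same length, 7.02% held the GAS-like form, 14.0% AGGTCA, 10.2% TGACNNNGC, 3.17% GTAAACA and 1.12% AGGTGTGA. The Cxcr4 window had 61.2% G and C bases with 19 CpG, whereas the windows of Ccr6, Cxcr6 and Ccr8 had 41.2%, 43.6% and 53.6% with 1, 3 and 1 CpG, beside a median of 52.4% and 6 CpG over all windows. The second Ccr6 window had 46.0% with 7 CpG. A match is a description of the letters, and no binding was measured here.

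Ccr6 (ENSMUSG00000040899), the receptor for CCL20, spans positions 8236043 to 8257141 of chromosome 17 (GRCm38, forward strand). It was at 27.0, 42.7 and 45.5 normalized counts in Ctrl replicates 1, 2 and 3, at 5.29, 9.42 and 16.5 with DMF and at 24.2, 26.0 and 22.4 with DMF + GSH. All DMF libraries were below all others, and the DMF + GSH libraries lay between DMF and Ctrl without touching either. With DMF, Ccr6 fell 3.68-fold (log2FC −1.88, SE 0.311, p adj = 0.00635, limma), with a log2 difference of −2.16 in batch 1 and −1.74 in batch 2. This was the largest fitted fall of the 8 receptors tested, ahead of Cxcr4 by less than its SE, and it rests on few reads, 26 to 46 per library in Ctrl and 5 to 17 with DMF. Against DMF alone its log2FC with GSH was 1.27 (SE 0.311, p adj = 0.0212, limma), which missed the threshold, and Ccr6 passed it in the paired fit (p adj = 0.00272). Against Ctrl, the DMF + GSH libraries had a log2FC of −0.61 (95% CI −1.31 to 0.08).

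Cxcr6 (ENSMUSG00000048521), the receptor for CXCL16, is on the forward strand of chromosome 9 from 123806475 to 123811760. It was at 996, 1156 and 809 normalized counts in Ctrl, at 478, 527 and 363 with DMF and at 989, 912 and 695 with DMF + GSH. Every DMF library lay below every other library, and replicate 3 was the lowest in each group. Cxcr6 fell 2.16-fold with DMF (log2FC −1.11, SE 0.171, p adj = 0.00543, limma), with log2 differences of −1.06, −1.13 and −1.15 in replicates 1, 2 and 3, so that the replicates differed little in the size of the change. With GSH it was 1.90-fold above DMF (log2FC 0.92, SE 0.171), with a p adj of 0.0116 that missed the threshold, and it passed in the paired fit (p adj = 2.70e-08). Against Ctrl its log2FC was −0.19 (95% CI −0.57 to 0.19).

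Cxcr3 (ENSMUSG00000050232), the receptor for interferon-induced chemokines and a marker of type 1 T cells, lies on the reverse strand of chromosome X from 101731535 to 101734269. It was at 342, 323 and 449 normalized counts in Ctrl, at 259, 410.0 and 347 with DMF and at 310.3, 290.3 and 326 with DMF + GSH. The groups overlapped, and DMF replicate 2 was above its Ctrl library while replicates 1 and 3 were below theirs. No change was detected between DMF and Ctrl (log2FC −0.14, 95% CI −0.48 to 0.20, p adj = 0.510, limma), and the interval leaves out a change of 0.75 in either direction. The log2FC of DMF + GSH was −0.25 against Ctrl (95% CI −0.60 to 0.09) and −0.11 against DMF (95% CI −0.45 to 0.23). Tbx21, which encodes T-BET, a factor known to drive Cxcr3, was at 152, 289 and 369.7 in Ctrl and 363, 578 and 602 with DMF in the same libraries (log2FC 0.98, p adj = 0.00564, limma).

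Ccr2 (ENSMUSG00000049103), the receptor for CCL2, CCL7 and CCL12, is on the forward strand of chromosome 9 from 124101950 to 124113557. It was at 20.8, 26.0 and 18.5 normalized counts in Ctrl, at 8.46, 11.1 and 4.84 with DMF and at 28.6, 20.0 and 23.3 with DMF + GSH. The DMF libraries were below all others, and Ctrl and DMF + GSH overlapped. The log2FC with DMF was −1.37 (SE 0.332, p adj = 0.0165, limma), which missed the threshold, and Ccr2 passed in the paired fit (p adj = 0.00200). With GSH, Ccr2 was 2.83-fold the level with DMF alone (SE of the log2FC 0.332, p adj = 0.0158), and this too passed in the paired fit (p adj = 0.00104). These values rest on 5 to 28 reads per library, and reads that Ccr2 shares with similar genes are uncertain. Ccr2 is also a receptor of monocytes, and the part of the myeloid RNA given above in its values was not tested.

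**Figure D1:**
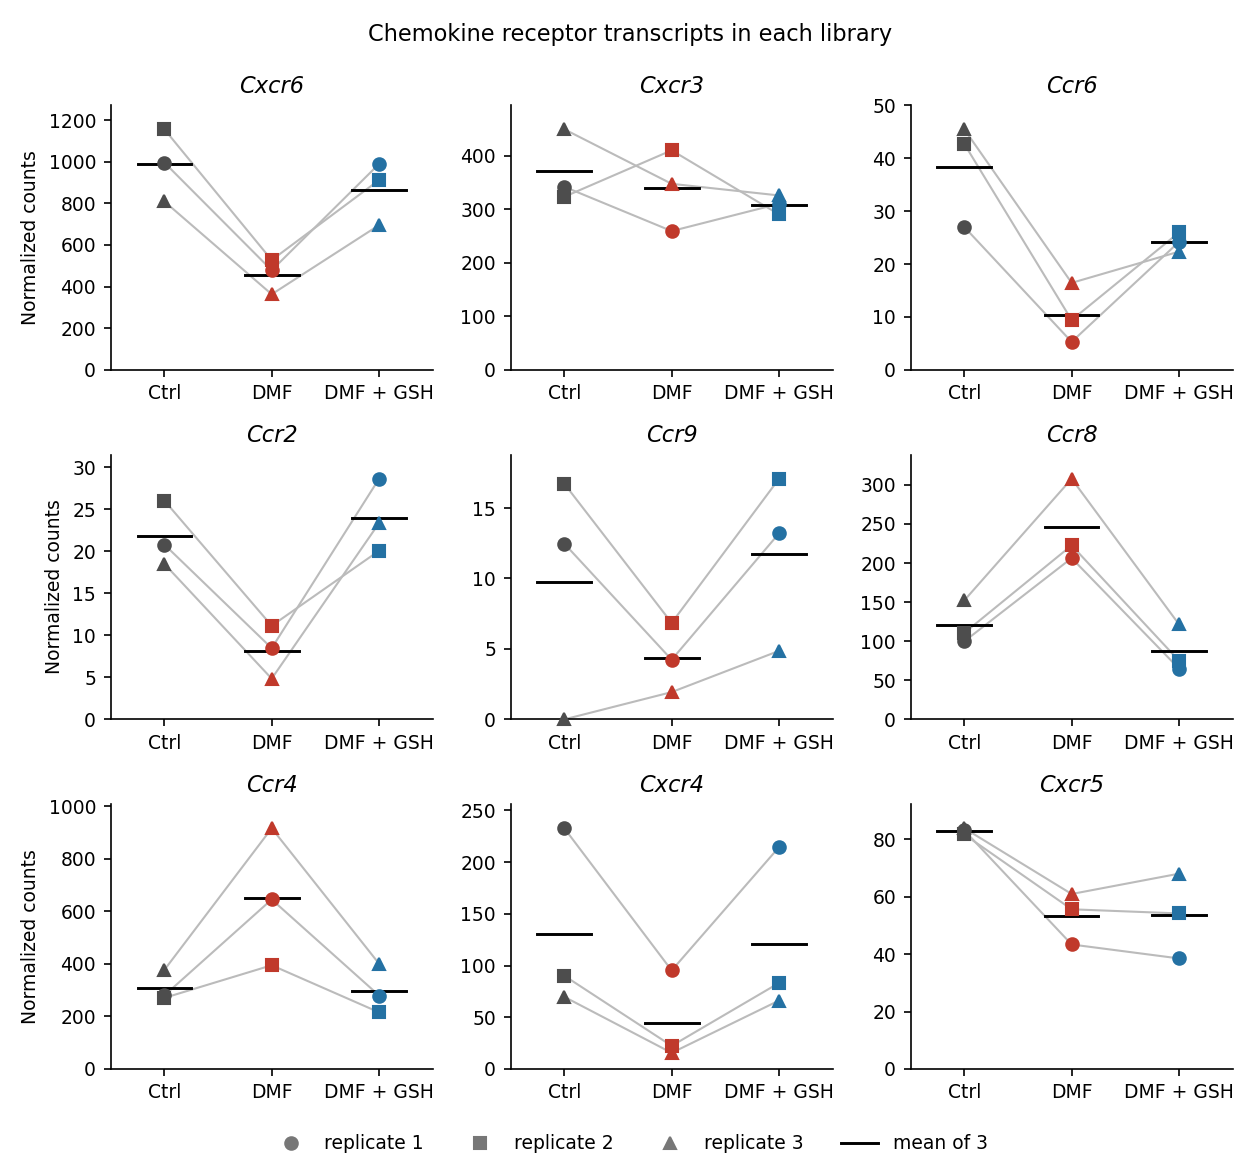
Normalized counts (vertical axes, from 0) of each of the 9 receptors in the 3 libraries of Ctrl, DMF and DMF + GSH, with grey lines joining libraries of the same replicate number and black bars at the group means. Within each replicate number Ccr6, Cxcr6, Ccr2 and Cxcr4 were lowest and Ccr8 and Ccr4 highest with DMF, and Cxcr5 was below Ctrl in both treated groups (means of 82.9, 53.3 and 53.6).

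Ccr8 (ENSMUSG00000042262), the receptor for CCL1, is on the forward strand of chromosome 9 from 120092114 to 120094906. It was at 99.8, 111 and 152 normalized counts in Ctrl, at 206, 223 and 308 with DMF and at 64.9, 75.0 and 122 with DMF + GSH. All DMF libraries were above all others, and each DMF + GSH library was below the Ctrl library of its number. Ccr8 rose 2.03-fold with DMF (log2FC 1.02, SE 0.206, p adj = 0.00936, limma), with log2 differences of 1.04 in batch 1 and 1.01 in batch 2. With GSH it fell 2.86-fold from the level with DMF alone (log2FC −1.51, SE 0.206, p adj = 0.00692, limma), where 0.543% of all genes passed (0.267% higher and 0.276% lower). The log2 differences in the 3 replicates were −1.65, −1.56 and −1.33. The log2FC of DMF + GSH against Ctrl was −0.50 (95% CI −0.96 to −0.04, unadjusted p = 0.0374 in limma), which did not pass after adjustment, also not in the paired fit (p adj = 0.278).

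Ccr4 (ENSMUSG00000047898), the receptor for CCL17 and CCL22, lies on the reverse strand of chromosome 9 from 114490316 to 114504916. It was at 279.6, 270.3 and 377 normalized counts in Ctrl, at 645, 395 and 917 with DMF and at 279, 215 and 401 with DMF + GSH. The DMF libraries were all above Ctrl, but DMF replicate 2 was the lowest of them and lay just under DMF + GSH replicate 3. The log2FC with DMF was 1.01 (SE 0.302, p adj = 0.0337, limma), which missed the threshold, and Ccr4 passed in the paired fit (p adj = 7.21e-07). With GSH, Ccr4 was 2.13-fold below DMF (log2FC −1.09, SE 0.302, p adj = 0.0315, and 3.98e-07 in the paired fit, which it passed), and its log2FC against Ctrl was −0.08 (95% CI −0.76 to 0.60). Without DMF replicate 2, both Ccr4 and Ccr2 passed between DMF and Ctrl in the fit with the batch term.

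Ccr4 and Ccr8 are both known from regulatory T cells, whose defining factor is FOXP3. Foxp3 was at 796, 559 and 913 normalized counts in Ctrl, at 2456, 1035 and 2325 with DMF and at 578, 463 and 935 with DMF + GSH, so that it too was lowest in DMF replicate 2 among the DMF libraries. Foxp3 missed the threshold for DMF against Ctrl (log2FC 1.29, p adj = 0.0221, limma) but not in the paired fit (p adj = 1.06e-07). The 3 regulatory T cell markers summed to 782 to 1233 in Ctrl, 1305 to 2832 with DMF and 612 to 1202 with DMF + GSH, and 0 of the 3 passed with the batch term and 2, Foxp3 and Lrrc32, in the paired fit. Lrrc32 had 145 ± 65.6 normalized counts in Ctrl against 285 ± 112 with DMF (log2FC 0.98, p adj = 0.000231 in the paired fit), and Ikzf2 had 84.0 ± 27.0 against 95.5 ± 19.9. Of the 3 CD4 T cell markers only Zbtb7b had a mean of at least 10, and Cd4 itself was near 0 in all groups. The part of Foxp3-expressing cells in the receptor values was not tested.

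Ccr9 (ENSMUSG00000029530), the gut-homing receptor for CCL25, lies on the forward strand of chromosome 9 from 123678439 to 123784330. It was at 12.5, 16.7 and 0 normalized counts in Ctrl, at 4.23, 6.85 and 1.94 with DMF and at 13.2, 17.1 and 4.86 with DMF + GSH. Replicate 3 was the lowest in each group, and its Ctrl library had 0 reads, which allows up to 4.27 normalized counts. In replicates 1 and 2 the DMF library was the lowest of its number, and in replicate 3 the Ctrl library was. With a mean of 8.59 over the libraries Ccr9 was not tested, and its exons share 1932 bp with AC165425.1 on the other strand, which had 0 counts.

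Cxcr4 (ENSMUSG00000045382), the receptor for CXCL12, is on the reverse strand of chromosome 1 from 128588199 to 128592293. It was at 233, 90.1 and 69.7 normalized counts in Ctrl, at 95.2, 22.3 and 15.5 with DMF and at 215, 83.2 and 66.1 with DMF + GSH. Replicate 1, which is batch 1, was 2.91 times the mean of batch 2 in Ctrl, 5.05 times with DMF and 2.87 times with DMF + GSH, so that DMF replicate 1 overlapped the Ctrl libraries of batch 2. Within each replicate number Cxcr4 was lower with DMF, with log2 differences of −1.28 in batch 1 and −1.97 and −2.10 in batch 2. The fitted fall was 3.44-fold (log2FC −1.78, SE 0.227, p adj = 0.00309, limma). With GSH it was 3.21-fold above DMF (log2FC 1.68, SE 0.227, p adj = 0.00692, limma), higher in 3 of 3 replicates, and its log2FC against Ctrl was −0.10 (95% CI −0.61 to 0.41). Without the batch term the spread between batches entered the error, and the fall with DMF no longer passed (p adj = 0.0717, where the alternatives ranged from 4.65e-08 to this value).

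Cxcr5 (ENSMUSG00000047880), the follicular receptor for CXCL13, lies on the reverse strand of chromosome 9 from 44511787 to 44561877. It was at 83.1, 81.7 and 83.9 normalized counts in Ctrl, at 43.4, 55.6 and 61.0 with DMF and at 38.5, 54.2 and 68.1 with DMF + GSH. Both treated groups lay below Ctrl in every library and overlapped each other. The log2FC with DMF was −0.64 (SE 0.185, p adj = 0.0293, limma, and 0.00789 in the paired fit), which is under the fold of the threshold. With DMF + GSH it was −0.66 against Ctrl (95% CI −1.07 to −0.25), with an unadjusted p of 0.00530 in limma, and it did not pass after adjustment (p adj = 0.394 in the paired fit). The log2FC of DMF + GSH against DMF was −0.02 (95% CI −0.43 to 0.40). A difference of Cxcr5 between these groups was thus not detected, and the interval leaves out one of 0.75. The gene shares 110 bp of exon with Bcl9l on the other strand, which was at 899 normalized counts in Ctrl and 607 with DMF, and whether strand was used in counting is not stated in the sources used here.

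**Figure D2:**
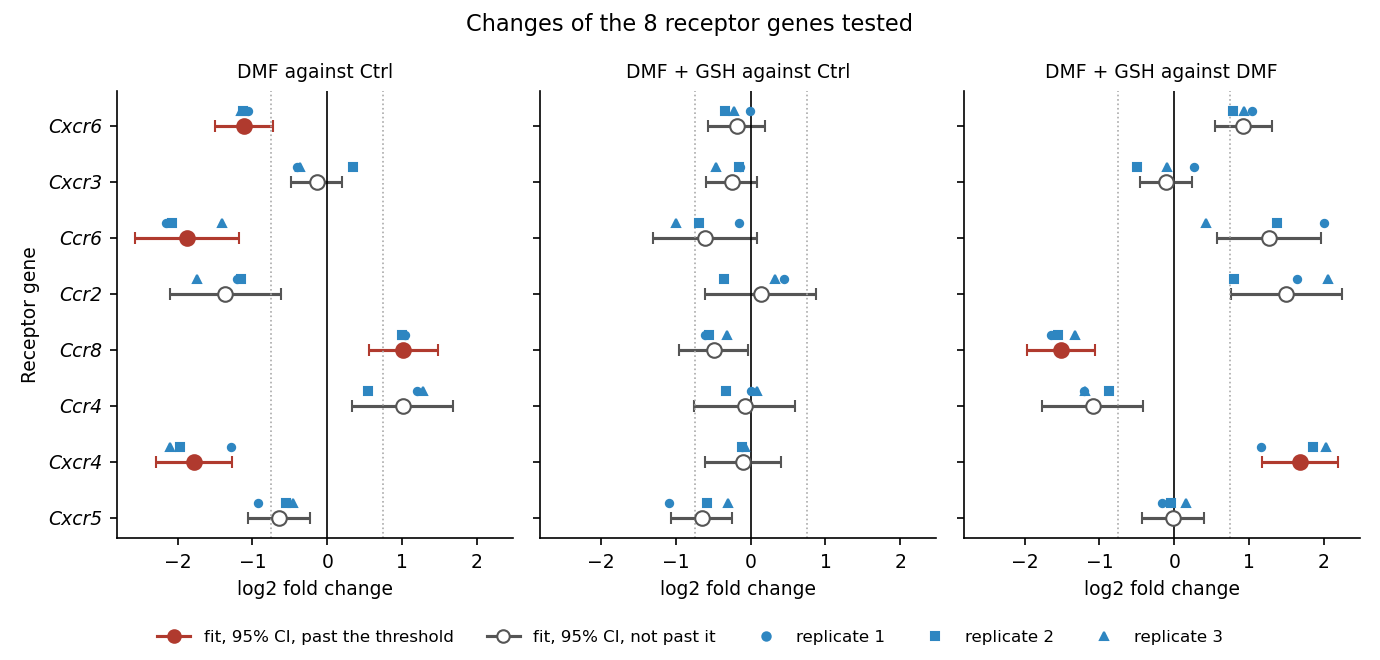
Fitted log2 fold changes (horizontal axes) of the 8 receptors tested, with 95% confidence intervals, for the 3 comparisons, filled where the threshold was passed, with the differences in replicates 1, 2 and 3 as small symbols and dotted lines at 0.75 in either direction. Ccr6, Cxcr4, Cxcr6 and Ccr8 passed with DMF, Ccr8 and Cxcr4 passed between DMF + GSH and DMF, and in the middle panel, where none passed, Cxcr5 (−0.66) and Ccr8 (−0.50) have intervals that leave out 0.

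Between DMF + GSH and DMF, 2 of the 8 receptors passed, Cxcr4 higher and Ccr8 lower with GSH, beside 0.543% of all genes tested. In the paired fit 6 passed, 4 higher (Ccr6, Ccr2, Cxcr4 and Cxcr6) and 2 lower (Ccr4 and Ccr8), beside 5.69% (3.28% higher and 2.41% lower). These 6 are those that passed between DMF and Ctrl in the paired fit, and both comparisons use the same DMF libraries. Between DMF + GSH and Ctrl, 0 of the 8 receptors passed in limma, in edgeR or in DESeq2, the last 2 run on the recovered reads, and 2 of the 8 (Cxcr5 and Ccr8) had an unadjusted p under 0.05 in limma. Over all 11599 genes, 222 had such a p in limma, 213 in edgeR and 100 in DESeq2, and 0 passed in each, while 0.00862% (1 gene, no receptor) passed in the paired fit. The groups did not overlap for 6 of the 8 receptors between DMF and Ctrl (2 higher, 4 lower), beside 41.3% of all genes (21.6% higher, 19.8% lower). They did not overlap for 2 (Ccr6 and Cxcr5, both lower) between DMF + GSH and Ctrl, beside 4.47% (2.39% lower), and for 4 between DMF + GSH and DMF (Ccr6, Ccr2 and Cxcr6 higher, Ccr8 lower), beside 38.3% (17.8% higher, 20.5% lower).

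The calls depended on single libraries in the fit with the batch term. Between DMF and Ctrl, 0 receptors passed without Ctrl replicate 1, Ctrl replicate 2, DMF replicate 1 or DMF replicate 3, only Cxcr4 passed without DMF + GSH replicate 1, and 6 passed without DMF replicate 2. In these fits, the p adj of the 4 receptors called reached at most 0.0556 for Ccr6, 0.0343 for Cxcr4, 0.0537 for Cxcr6 and 0.0691 for Ccr8, and none of them changed direction. Over all alternatives but the paired fits that lacked a library, the p adj for DMF against Ctrl ranged from 6.49e-05 to 0.0556 for Ccr6, from 1.13e-09 to 0.0537 for Cxcr6 and from 8.87e-07 to 0.0691 for Ccr8. For Ccr2 it ranged from 0.00200 to 0.0823, and for Ccr4 from 2.09e-07 to 0.150. In the paired fit, 5 or 6 receptors passed whichever library was left out, and Ccr6, Ccr4, Ccr8, Cxcr4 and Cxcr6 were among them each time, as run after seeing the data.

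The order of the receptors was read from the level per kb of exon. The length used was that of all annotated exons of a gene together, not of a single transcript. It was 10260 bp for Ccr9 and 6760 bp for Ccr2, against 1175 to 3332 bp for the other receptors. The places of Ccr9 and Ccr2 in the order may thus depend on the length used. In Ctrl, Cxcr6 led with 511 ± 89.8 normalized counts per kb (SD, n = 3), followed by Cxcr3 with 215 ± 39.3. Ccr8 (103 ± 23.5), Ccr4 (99.9 ± 19.1) and Cxcr4 (72.4 ± 49.2) overlapped in their ranges. Below them, and apart from each neighbour, were Cxcr5 (24.9 ± 0.328), Ccr6 (16.6 ± 4.30), Ccr2 (3.22 ± 0.570) and Ccr9 (0.948 ± 0.847). With DMF the receptors at the top overlapped, since Cxcr6 (236 ± 43.7), Ccr4 (211 ± 84.4), Ccr8 (209 ± 46.4) and Cxcr3 (196 ± 43.8) each overlapped the next in line, and Cxcr4 dropped to 24.5 ± 24.5. With DMF + GSH, Cxcr6 (448 ± 78.9) and Cxcr3 (178 ± 10.3) stood apart again at the top.

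As a share of the summed level per kb of the 9 receptors, Cxcr6 made up 48.7% ± 7.48 in Ctrl, 26.6% ± 6.61 with DMF and 49.9% ± 6.85 with DMF + GSH. Ccr4 and Ccr8 had larger shares with DMF, Ccr4 with 9.58% ± 2.09, 23.2% ± 7.78 and 10.9% ± 3.80 and Ccr8 with 9.87% ± 2.52, 23.1% ± 3.18 and 8.42% ± 3.36 in the same order. The share of Cxcr3 was 20.6% ± 4.34, 21.8% ± 5.08 and 20.0% ± 1.95, and Ccr6 made up 1.59% ± 0.43, 0.49% ± 0.23 and 1.17% ± 0.13. The sum itself was 1046 ± 26.5 per kb in Ctrl, 898 ± 72.4 with DMF and 895 ± 76.0 with DMF + GSH. Shares were described and not tested, and a share falls when another rises.

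**Figure D3:**
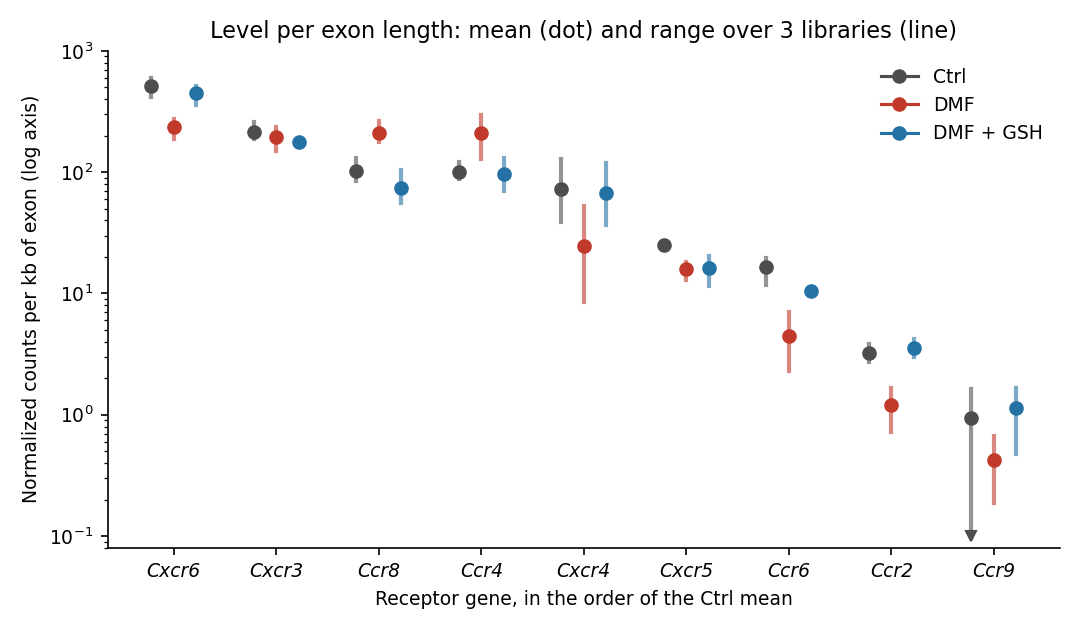
Normalized counts per kb of exon (vertical log axis) of the 9 receptors in the order of their Ctrl mean, with dots at the mean and lines over the range of the 3 libraries of each group (an arrow marks a library at 0). Cxcr6 led in Ctrl at 511 and with DMF + GSH at 448, and with DMF it stood at 236 beside Ccr4, Ccr8 and Cxcr3.

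Of the 9 receptor genes, 6 lie on chromosome 9, and Ccr9, Cxcr6 and Ccr2 lie within 435 kb of it (chr9:123678439-124113557, GRCm38), a stretch that holds 10 protein-coding genes. In this stretch Cxcr6 passed the threshold with DMF together with Xcr1 and Fyco1. Xcr1, which encodes the receptor for XCL1, was at 69.6, 69.7 and 55.5 normalized counts in Ctrl, at 13.8, 14.6 and 16.5 with DMF and at 67.1, 52.7 and 33.1 with DMF + GSH. Its DMF libraries were all below the others (log2FC −2.05, SE 0.256, p adj = 0.00297, limma), and with GSH it rose again against DMF (log2FC 1.65, p adj = 0.00940). Fyco1, an adaptor gene of vesicle transport, fell from 493 ± 93.5 to 284 ± 43.5 (log2FC −0.79, SE 0.137, p adj = 0.00661). Cxcr6 lies within Fyco1 on the other strand, with 0 bp of shared exon, so that intronic reads of Fyco1 could count for Cxcr6 if strand was not used. Lztfl1 had a log2FC of −0.36 (p adj = 0.0778), and Ccr1, Ccr3 and Ccr1l1 had group means of at most 2.46 and were not tested.

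The other 9 signalling chemokine receptors fell into 4 that were tested and 5 that were not. With DMF 1 of the 4 passed, Xcr1, lower. Ccr7, the receptor for entry into lymph nodes, was at 5367 ± 1287 normalized counts in Ctrl and 3671 ± 802 with DMF (log2FC −0.54, SE 0.189, p adj = 0.0567, limma). Cx3cr1 was at 43.5 ± 14.3 and 37.3 ± 15.4 (p adj = 0.624). Ccr1, Ccr3, Ccr10, Cxcr1 and Cxcr2 had group means of at most 3.28, and none of the 5 atypical receptors, which bind chemokines without G protein signalling, reached a mean of 10.

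Of the 15 ligands of the receptors, 4 were tested and 1 passed. Ccl1, which encodes a ligand of CCR8, was at 9.35, 3.72 and 8.53 normalized counts in Ctrl and at 81.5, 57.4 and 72.6 with DMF. With DMF + GSH it was at 7.70, 31.2 and 10.7. Its log2FC for DMF against Ctrl was 3.19 (SE 0.493, p adj = 0.00543, limma). Transcripts of this ligand and of its receptor thus rose with DMF in the same cultures, and all DMF libraries lay above all others for both. The size of the rise of Ccl1 rests on few reads, 9, 4 and 6 in Ctrl replicates 1, 2 and 3. With DMF + GSH it had 7, 42 and 11 reads. Against DMF, the log2FC of Ccl1 with GSH was −2.25 (p adj = 0.0155), and it passed in the paired fit (p adj = 0.000297). Ccl20, Cxcl10 and Ccl25 did not pass, with log2FCs of −0.15, 0.13 and 0.09. The other 11 ligands, Cxcl16 and Cxcl12 among them, had a mean under 10.

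Of the 8 other G protein-coupled receptors that guide T cells and were tested, 2 passed the threshold, both lower with DMF, and 5 were lower at a p adj under 0.1, beside 18.3% of all genes tested. S1pr1, the sphingosine-1-phosphate receptor with which T cells leave lymph nodes, was at 1864, 1213 and 555 normalized counts in Ctrl, at 399.9, 311 and 166 with DMF and at 1579.9, 1124 and 545 with DMF + GSH (log2FC −1.97 for DMF against Ctrl, SE 0.337, p adj = 0.00649, limma). It was lowest in replicate 3 of each group, as were Ccr9, Cxcr4 and Cxcr6. Ltb4r1, the leukotriene B4 receptor, fell from 41.1 ± 7.50 to 7.78 ± 2.45 (log2FC −2.28, SE 0.305, p adj = 0.00381). S1pr4 (log2FC −0.74, p adj = 0.0185), Gpr15 (−0.49, p adj = 0.0168) and Gpr18 (−0.29, p adj = 0.234) did not pass. Gpr183, a receptor for oxysterols named after its values were seen, passed only in the paired fit (log2FC −1.33, p adj = 0.0146 with the batch term).

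Of the 14 tested genes of receptor signalling, 0 passed in limma or in the paired fit, while 1 was higher and 7 were lower at a p adj under 0.1, beside 19.9% and 18.3% of all genes tested. Gnai2, the inhibitory G protein of chemokine receptors, was at 8199 ± 503 normalized counts in Ctrl and 6590.5 ± 359 with DMF (log2FC −0.31, p adj = 0.0168), Rac2 had a log2FC of −0.40, Dock2 one of −0.51 and Gnb1 one of 0.18. Of 12 brakes of the receptors, 2 passed. Rgs16, a regulator that shortens G protein signals, rose from 1375 ± 343 to 2380.2 ± 459 (log2FC 0.81, SE 0.0782, p adj = 0.00169), and Arrb1, a β-arrestin that takes receptors off the surface, fell from 1527 ± 414 to 694 ± 178 (log2FC −1.13, p adj = 0.00982). Grk2 (−0.31), Grk6 (−0.39) and Rgs1 (0.56) did not pass.

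Of the 15 adhesion genes of homing, 2 passed, both lower with DMF. They encode the chains of integrin α4β7, the gut-homing integrin, of which α4 also pairs with β1 for entry into the central nervous system. Itga4 was at 816, 1138 and 757 normalized counts in Ctrl, at 397, 544 and 355 with DMF and at 827, 927 and 588 with DMF + GSH (log2FC −1.06 for DMF against Ctrl, SE 0.215, p adj = 0.00933, limma). Itgb7 fell from 5901 ± 1052 to 3007 ± 426 (log2FC −0.97, p adj = 0.00642) and was at 5353 ± 1035 with DMF + GSH. Selplg (log2FC −0.30), Spn (−0.38), Itgal (−0.07) and Itgb2 (−0.02) did not pass.

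Of 12 transcription factor genes known to act on receptor genes, 2 passed higher and 1 lower. Tbx21 (given above beside Cxcr3) and Eomes rose, Eomes from 28.2 ± 18.9 to 130.3 ± 7.89 normalized counts (log2FC 2.35, SE 0.284, p adj = 0.00276, limma), and Rora, a factor of type 17 cells, fell from 298 ± 48.8 to 160.1 ± 14.9 (log2FC −0.88, SE 0.135, p adj = 0.00543). Tcf7 (−1.14, p adj = 0.0163), Irf4 (0.18), Runx3 (−0.28) and Foxo1 (−0.27) did not pass. In the paired fit 7 passed, 3 higher and 4 lower, with Prdm1, Klf2, Bcl6 and Tcf7 added, beside 6.8% of all genes in that fit. Of these, Prdm1, Klf2 and Bcl6 are named after their values were seen. The counts of these lists with the batch term stand beside 2.89% of all genes that passed in that fit.

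**Figure D4:**
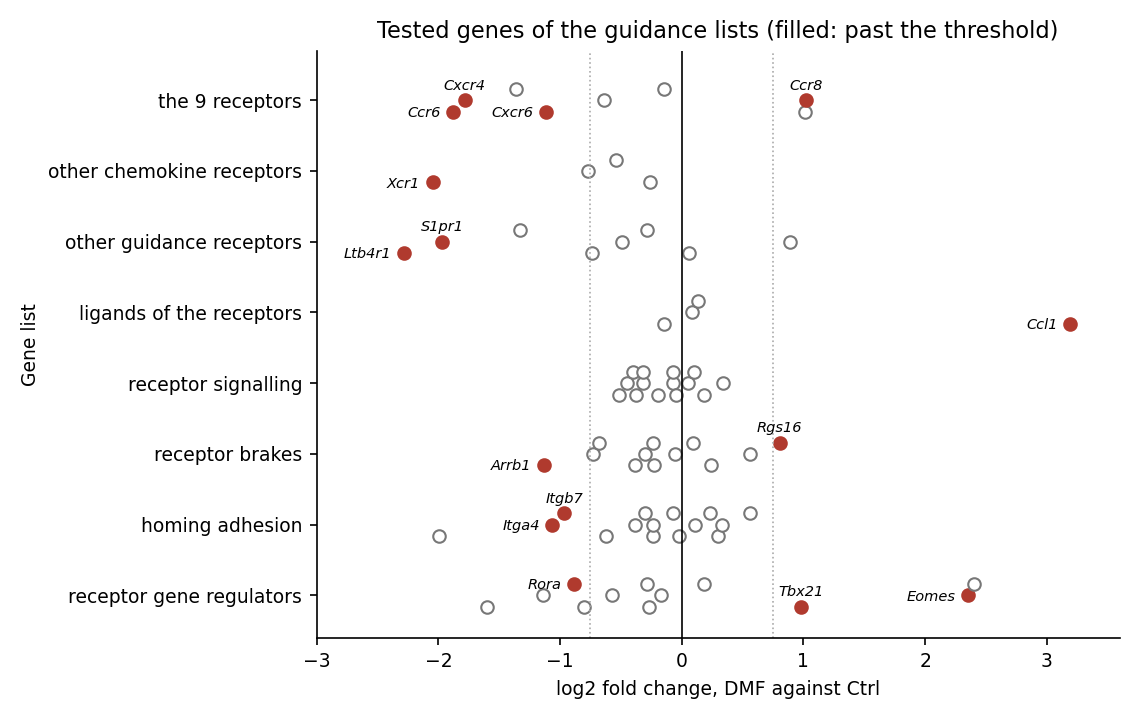
Fitted log2 fold changes for DMF against Ctrl (horizontal axis) of every tested gene of the guidance lists, 1 row of points per list, filled and named where the threshold was passed, with dotted lines at 0.75 in either direction. The 14 genes of receptor signalling lie within −0.51 to 0.34, while the 8 receptors tested span −1.88 to 1.02.

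Across the 9 libraries the receptors fell into patterns, given as correlations of log2(normalized count + 1) with no test, since the points share the 3 groups and the 2 batches. Cxcr6 went with Ccr2 (Pearson's r = 0.94) and against Ccr4 (−0.92) and Ccr8 (−0.89), and Ccr4 went with Ccr8 (0.88). Cxcr4 was nearest to Cxcr6 (0.77) and Ccr6 likewise (0.73). Cxcr3 had an r of at most 0.55 with any other receptor, reached with Cxcr5. Among all genes tested, those most like Cxcr6 were Map3k5 (0.994), Plekhb2 (0.991) and Nusap1 (0.990), and those most like Ccr6 were Dpy19l3 (0.963), Rnft1 (0.952) and Setd5 (0.950). For Ccr8 they were Nob1 (0.982), Pycrl (0.978) and Mrpl15 (0.975), and for Cxcr4 Bach2os (0.981), Glb1l (0.980) and Iqgap2 (0.975).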

How the data were processed

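Reads of 50 bp were aligned to GRCm38 with STAR 2.4.0b (submitters' processing notes) and assigned to genes with featureCounts. The authors deposited a signal per gene, its read count over the size factor of the library (normalized count). The values were multiples of 1 step in each library, which returned whole reads for 100% of them (tolerance 0.01) and thus the depth. The authors' own Ctrl and DMF fold changes were not used. Groups, replicate numbers and batches came from the labels.

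The test was limma-trend (limma 3.58.1 under R 4.3.3) of log2(normalized count + 1) on group and batch, fitted once to all 9 libraries over the 11599 of 41388 genes with a mean of at least 10. Fold changes of low genes come out smaller on this scale. Libraries of the same number deviated together from their group means (r of 0.447 to 0.578 in 9 pairs, against −0.471 to −0.0621 in the other 18), which showed that the numbers of the labels pair the samples. Alternatives were other pseudocounts (0.5, 4), minimums (none, 50) and scalings (TMM, quantile), a fit without the batch, the paired fit (replicate block), the 6 libraries of a comparison alone and leaving out each library. Chosen after seeing the data were edgeR 4.0.16 and DESeq2 1.42.0 on the whole reads and the paired fit with each library left out. The test was checked on simulated data.

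The receptors, gene lists and marker lists were chosen with earlier results of these data known. All 9 receptors were named, with the genes of each list past the threshold and up to 4 of highest mean, and the 3 genes most like each receptor called. Positions come from GENCODE vM21 (GRCm38), which held 40254 of the 41388 identifiers, and promoters from RefSeq. Further tools were Python 3.11.15 with pandas 2.3.3, NumPy 2.4.6 and, for plots, Matplotlib 3.10.9.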

Additional observations from a re-analysis of the deposited data

How the results depend on the processing

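Low reads limit Ccr6, Ccr2 and Ccr9 (46 reads or fewer per library), and batch 1 holds 1 library per group. Every receptor called kept its direction in all alternatives.

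Between DMF and Ctrl, 4 of 8 receptors passed the threshold, against 2 without the batch term (Ccr6 and Cxcr6), 0 with only the 6 libraries compared, 3 with a minimum mean of 50 or quantile normalization, 6 with the replicate block and 0 to 6 without 1 library (5 to 6 with the block). The genes past it, 335, became 789 with the replicate block, 795 in edgeR with the block, 554 in DESeq2, 43 with the 6 libraries and 2 to 680 without 1 library (561 to 865 with the block). Between DMF + GSH and Ctrl, 0 receptors passed in any alternative, and 0 genes passed, against 1 with the block in limma and in edgeR and 0 without 1 library (0 to 5 with the block). Between DMF + GSH and DMF, 2 receptors passed, against 6 with the block in limma and in edgeR, 3 with no minimum or in DESeq2, 0 without the batch term or with the 6 libraries, and 0 to 5 without 1 library (4 to 6 with the block). The 63 genes became 273 with no minimum, 660 with the block, 655 in edgeR with it, 384 in DESeq2, 28 without the batch term, 5 with the 6 libraries and 0 to 480 without 1 library (404 to 728 with the block).

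Only log2FCs that had not passed changed sign. Without 1 library, with or without the block, Cxcr3 ranged from −0.3597 to 0.0142 for DMF against Ctrl and from −0.2667 to 0.1072 for DMF + GSH against DMF. For DMF + GSH against Ctrl, Ccr2 ranged from −0.0520 to 0.4342, Ccr4 from −0.3266 to 0.1603 and Cxcr4 from −0.2396 to 0.0421. For DMF + GSH against DMF, Cxcr5 ranged from −0.1576 to 0.1299 and was 0.0076 in edgeR, 0.0110 in edgeR with the block and 0.0069 in DESeq2. The cause was not tested.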
